A study of Mus musculus with 8 samples.

Results

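The Prp19 complex is the set of spliceosomal proteins built around the ubiquitin ligase PRPF19. Here it is described by 10 genes, taken by their symbols from the 55385 genes of the count table. They are the core subunits *Prpf19*, *Cdc5l*, *Plrg1* and *Bcas2* with their binding partner *Ctnnbl1*, and the factors *Crnkl1*, *Xab2*, *Isy1*, *Syf2* and *Bud31*, which act with the core in the active spliceosome. The libraries came from R1 mESCs, a mouse embryonic stem cell line labelled as wild type and kept in N2B27 medium with 2i and LIF. Cells of every group were exposed to lentivirus on 2 days and then kept under puromycin for 3 days. The virus carried a hairpin against *Eftud2*, shRNA1 (3 biological replicates) or shRNA2 (3), or the non-targeting hairpin nt-shRNA (2), so the controls share the infection and the selection. Differences between shRNA1 and shRNA2 compare hairpins of unlike sequence.

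During splicing the U5 snRNP protein EFTUD2, a GTPase, takes part in the remodelling that activates the spliceosome. The Prp19 complex joins at that step, when U4 leaves, and holds the U2, U6 and U5 RNAs in the arrangement that carries out catalysis. PRPF19 is a U-box ligase with WD40 repeats that works as a tetramer. CDC5L, a protein with Myb repeats, is the long scaffold on which PLRG1 and BCAS2 assemble. CRNKL1 and XAB2 are arch-shaped repeat proteins that bridge the core to the catalytic RNAs, where ISY1, SYF2 and BUD31 also sit.

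Total counts ran from 19569525 to 29871048 per library, and the members had between 501 and 13613 counts in each, so depth did not limit their detection. The targeted transcript *Eftud2* was at 262 and 256 CPM with nt-shRNA, 232, 229 and 225 CPM with shRNA1, and 198, 202 and 235 CPM with shRNA2. CPM are counts scaled to library size and composition (TMM, edgeR). The hairpin libraries all lay below the controls and overlapped with each other. Under shRNA2 *Eftud2* fell by 0.29 on the log2 scale (edgeR adjusted p = 0.00122, and between -0.37 and -0.18 over the alternatives), while the shRNA1 value of -0.18 did not pass (adjusted p = 0.0514). That value was -0.06 with library size as the only scaling (adjusted p = 0.498), and it passed without a count filter (adjusted p = 0.03), with only the groups compared (0.0491), with a replicate block (-0.21, 0.0206), without shRNA2 replicate 2 (0.0415) and without shRNA2 replicate 3 (0.0215). The *Eftud2* levels of the hairpins differed by -0.11 (adjusted p = 0.164), and by -0.19 without shRNA2 replicate 3 (adjusted p = 0.0127). By qPCR the study itself reported a larger fall of *Eftud2* with each hairpin than these counts show, and a greater one with shRNA2. It also reported less EFTUD2 protein with either hairpin by western blot. The 8 stem cell markers checked, among them *Pou5f1*, *Sox2* and *Nanog*, summed to between 6580 and 6970 CPM in all libraries, but moved in opposite directions within that sum. With shRNA2 5 were called higher (*Klf4* by 1.32, *Nanog* by 0.76, *Zfp42* by 0.54, *Esrrb* by 0.39 and *Tfcp2l1* by 0.28 on the log2 scale) and 2 lower (*Dppa5a* at -0.96 and *Pou5f1* at -0.29), and with shRNA1 3 were called higher and 2 lower. The 4 fibroblast markers summed to 4.56 to 4.87 CPM with nt-shRNA, 6.47 to 7.34 CPM with shRNA1 and 6.28 to 7.48 CPM with shRNA2. Of these *Col1a2* was called higher with both hairpins (0.429, 1.06 and 1.38 CPM on average), and *Col3a1* was at 0 in the nt-shRNA libraries. The 3 mesoderm markers summed to 2.59 to 2.65 CPM with nt-shRNA, 1.94 to 2.22 CPM with shRNA1 and 2.62 to 3.21 CPM with shRNA2. Among them *T* was called lower with shRNA1 (-0.81 on the log2 scale). With shRNA2 *Mixl1* was called higher (0.81) and *Tbx6* lower (-0.87). The 3 markers of the two-cell-like state (*Zscan4c*, *Zscan4d*, *Zscan4f*) summed to 6.48 to 7.2 CPM with nt-shRNA, 36.1 to 52.7 CPM with shRNA1 and 28.3 to 37.7 CPM with shRNA2. With shRNA2 the 3 neural markers were at 13.3 to 18.8 CPM against 7.6 to 8.51 CPM in the controls. *Neurod1* had a mean of 8.75 against 0.166 CPM, *Sox1* 5.53 against 6.39 CPM and *Pax6* 1.12 against 1.497 CPM. *Neurod1* was also called higher with shRNA1 (mean 1.88 CPM, 3.49 on the log2 scale), where the 3 markers summed to 7.85 to 9.48 CPM. Also with shRNA2 the 3 endoderm markers were at 13.9 to 16.8 against 19.8 to 20.2 CPM, and the 3 primed-state markers at 25.8 to 37.6 against 41.4 to 55.3 CPM. Their part in the results below was not tested, and in bulk libraries fewer cells of a type and less RNA per cell cannot be told apart.

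The 10 genes had unequal transcript levels in the control cells. Levels between genes are given as CPM per kilobase of the merged exons of the gene. *Cdc5l* was highest at 131.8 ± 0.534 (SD, n = 2), above 98.2% of all tested genes. *Bcas2* followed at 40.36 ± 1.15, then *Xab2* at 36.7 ± 0.725 and *Plrg1* at 36.2 ± 0.601. The values of *Xab2* and *Plrg1* overlapped between libraries. *Prpf19*, the gene that names the complex, was at 27.8 ± 0.921, *Bud31* at 25.5 ± 2.81, *Ctnnbl1* at 25.4 ± 0.687 and *Syf2* at 24.6 ± 0.335. *Prpf19* overlapped with *Bud31*, and *Bud31* with *Ctnnbl1* and *Syf2*. *Crnkl1* was lower at 13.1 ± 0.957 and *Isy1* lowest at 4.16 ± 0.0938, so that *Cdc5l* stood 31.7-fold above *Isy1*. In shRNA1 and shRNA2 cells *Cdc5l* was again highest, and *Crnkl1* and *Isy1* lowest. *Bcas2* came next by its mean in both, but overlapped between libraries with *Xab2* in both groups and, with shRNA2, with *Plrg1* (42.45 and 42.44).

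**Figure D1:**
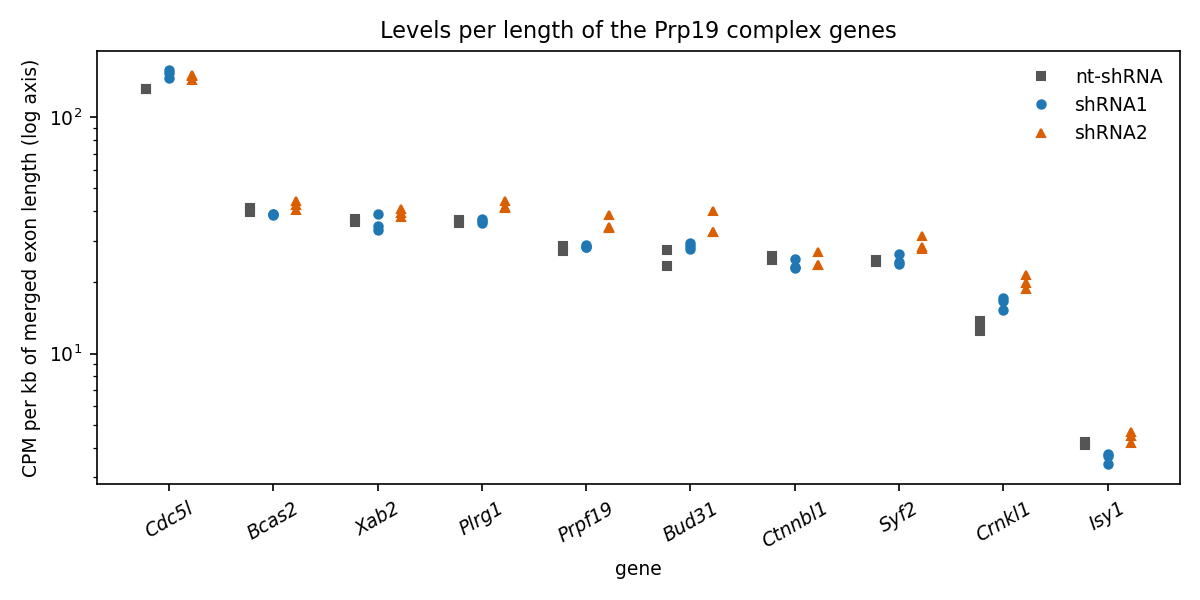
Level of each gene in CPM per kilobase of merged exon length (log axis), one symbol per library, for nt-shRNA (grey squares), shRNA1 (blue circles) and shRNA2 (orange triangles). *Cdc5l* lies above and *Crnkl1* and *Isy1* below the other 7 genes in every library.

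This order rests on the lengths used. The merged exons of *Prpf19* span 7278 bases, 3.41 times its principal transcript (2134 bases), and those of *Bcas2* 4390 bases, 2.99 times its principal transcript (1467 bases). Per kilobase of the principal transcript, a length chosen after the data were seen, *Cdc5l* stayed highest (143.7 ± 0.584), with *Bcas2* at 120.8 ± 3.47 and *Prpf19* next at 94.7 ± 3.12. *Isy1* stayed lowest (4.80 ± 0.108). The comparisons between groups below are within a gene and do not depend on length.

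The short promoters of the members, from 250 bases before to 50 bases after each RefSeq start (GRCm38.p6), were searched for 7 core motifs on both strands. All 10 genes had at least 1 window. The ETS motif CCGGAAG was present in 4 of 10 (*Prpf19*, *Xab2*, *Isy1* and *Syf2*), against 9.93% of the 27025 genes in the table and 18.3% of the 11943 of them tested here. TGACGT, from the cAMP response element, was present in 3 of 10 (*Cdc5l*, *Bcas2* and *Xab2*), against 12.4% of tested genes. The GC box GGGCGG was found in 6 of 10 against 66.2%, CCAAT in 5 against 43.0%, and CACGTG in *Bcas2* and AAGATGG in *Xab2* alone, against 11.4% and 7.90%. TATAAA was in none of the 10, against 8.74%. The stretches holding the ETS motif are shown for *Prpf19* and *Syf2*, whose levels followed each other most closely between the core and the associated factors (below), and for *Isy1* and *Xab2*, which share the motif but not the shRNA2 call, together with the TGACGT match of *Cdc5l*, the most abundant member. They are written 5′ to 3′ on the gene's strand with the motif, or its reverse complement, in capitals.
Prpf19 (chr19:10895152-10895181, plus strand, motif from -68): tggagcgctcgCCGGAAGaagccgagccaa
Syf2 (chr4:134930882-134930911, plus strand, motif from -87): agcgtgagaggCCGGAAGaaactgacgcca
Syf2 (chr4:134930939-134930968, plus strand, motif from -30): gccagaggccgCCGGAAGtgctcagcgttg
Isy1 (chr6:87838781-87838810, minus strand, motif from -40): tccctccctcgCTTCCGGtccttaatttcc
Xab2 (chr8:3621438-3621467, minus strand, motif from -160): tgtgacgtcatCTTCCGGcgcccctttgct
Xab2 (chr8:3621421-3621450, minus strand, motif from -143): gcgcccctttgCTTCCGGtcacttccttaa
Cdc5l (chr17:45433783-45433812, minus strand, motif from -94): tgccctccgcgTGACGTcaggaccaatccc
The first *Xab2* stretch also holds TGACGT next to its ETS motif. These are matches of letters in a window, not binding sites.

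Each hairpin was compared with nt-shRNA to ask whether these splicing factor transcripts change under a hairpin against *Eftud2*. With shRNA2, 6 of the 10 genes rose and none fell at an adjusted p under 0.05 (edgeR's quasi-likelihood test, Benjamini-Hochberg over 17445 genes). Among all tested genes 55.9% were called in this comparison, 27.2% as higher and 28.7% as lower, so the share called was near the background, while the members called were all in the upward direction. The median log2 fold change of the 10 was 0.20, against 0.00 over all tested genes. With shRNA1 2 of the 10 rose and none fell, where 30.9% of all tested genes were called, 13.8% as higher and 17.1% as lower. This count was 1 without nt-shRNA replicate 1, 0 without nt-shRNA replicate 2, and 4 with offsets for GC content, an alternative added later, which called *Bcas2* and *Isy1* lower. The median with shRNA1 was 0.01, against -0.01. The changes were modest in both comparisons. The median absolute log2 fold change of the members was 0.20 with shRNA2 and 0.07 with shRNA1, below the 0.37 and 0.22 of all tested genes. Both comparisons use the same 2 nt-shRNA libraries.

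Counted by library rather than by test, all shRNA2 libraries lay above both controls for 7 of the 10 genes (the 6 called and *Xab2*) and below them for none. Of all tested genes 71.4% had no overlap between these groups, 35.4% with shRNA2 higher and 36.0% with it lower. With shRNA1 3 members lay above the controls (*Cdc5l*, *Crnkl1* and *Bud31*) and 2 below (*Bcas2* and *Isy1*), against 56.8% of all tested genes without overlap, 26.6% higher and 30.2% lower. In both cases the share of members without overlap was near or below that of all genes.

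**Figure D2:**
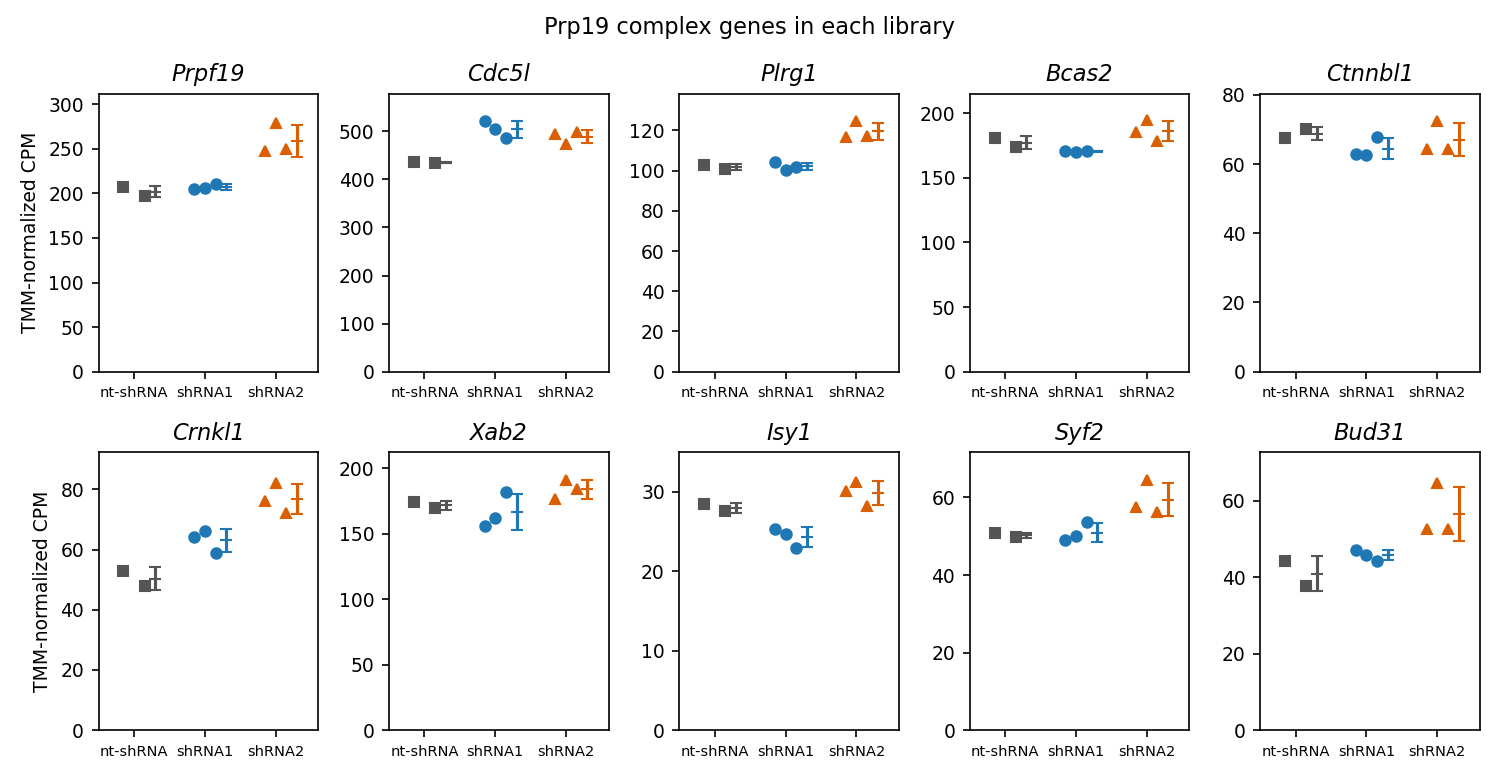
TMM-normalized CPM of each of the 10 genes in every library, with the mean and SD of each group beside the points (nt-shRNA 2 libraries, shRNA1 and shRNA2 3 each; vertical axes start at 0). *Prpf19*, *Plrg1*, *Crnkl1*, *Syf2* and *Bud31* have all shRNA2 libraries above all others, and *Cdc5l* has both hairpins above the controls.

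Among the core genes, *Prpf19* (ENSMUSG00000024735.13, chr19:10895231-10909559, GRCm38) rose with shRNA2 and not measurably with shRNA1. Its level was 207 and 197 CPM with nt-shRNA, 205, 206 and 210.5 CPM with shRNA1, and 248, 279.5 and 249 CPM with shRNA2. The shRNA1 libraries overlapped with the controls, and all shRNA2 libraries lay above them. *Prpf19* thus had a log2 fold change of 0.36 under shRNA2 (standard error 0.0638, 95% interval 0.22 to 0.49, adjusted p = 1.0e-04, edgeR), a level 28.1% higher. With shRNA1 it was 0.04 (interval -0.10 to 0.17, adjusted p = 0.708). The direct difference between the hairpins was 0.32 (standard error 0.0568, adjusted p = 2.8e-04).

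*Plrg1* (chr3:83055522-83072355), the WD40 subunit that binds CDC5L, followed *Prpf19*. It stood at 103 and 101 CPM with nt-shRNA, 104, 100.5 and 102 CPM with shRNA1, and 117, 125 and 117 CPM with shRNA2. Again the shRNA2 group alone lay apart. Its fold change on the log2 scale was 0.23 with shRNA2 (interval 0.11 to 0.36, adjusted p = 0.00292, edgeR) and 0.01 with shRNA1 (interval -0.12 to 0.13, adjusted p = 0.957), and the hairpins differed by 0.23 (adjusted p = 0.00311).

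*Cdc5l* (chr17:45391884-45433737), the scaffold and the most abundant member, had the other pattern. Its level was 436 and 434 CPM with nt-shRNA, 521, 506 and 485 CPM with shRNA1, and 495, 475 and 498 CPM with shRNA2. Both hairpin groups lay above the controls and overlapped with each other. *Cdc5l* was higher by 0.21 on the log2 scale with shRNA1 (interval 0.09 to 0.34, adjusted p = 0.00993, edgeR) and 0.17 with shRNA2 (interval 0.05 to 0.29, adjusted p = 0.0199). The difference between the hairpins was -0.04, with an interval from -0.15 to 0.07 (adjusted p = 0.556). Both calls were lost when either control library was left out, while the log2 fold changes stayed close. Without nt-shRNA replicate 1 they were 0.22 with shRNA1 and 0.17 with shRNA2. Without nt-shRNA replicate 2 they were 0.21 and 0.16. The shRNA2 call was also lost without shRNA2 replicate 1 (0.17, adjusted p = 0.0599) and without a filter on low counts (0.15, adjusted p = 0.0589). With GC offsets it was lost as well (0.11, adjusted p = 0.0678). GC offsets and the replicate block together lost the shRNA1 call (0.14, adjusted p = 0.0575) and the shRNA2 call (0.11, adjusted p = 0.103). Over the alternatives the adjusted p ran from 3.6e-04 to 0.075 with shRNA1 and from 9.2e-04 to 0.108 with shRNA2.

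*Bcas2* (chr3:103171655-103179166), the small subunit also known as SPF27, did not pass in any of the comparisons. It was at 181 and 174 CPM with nt-shRNA, 171, 169.7 and 171 CPM with shRNA1, and 186, 194.5 and 179 CPM with shRNA2. The shRNA1 libraries were all below the controls by a small margin, and the shRNA2 libraries overlapped with them. The log2 fold changes were -0.06 (interval -0.18 to 0.07, adjusted p = 0.505, edgeR) and 0.07 (interval -0.05 to 0.20, adjusted p = 0.309), and the hairpins differed by 0.13 (interval 0.02 to 0.24, adjusted p = 0.0666), which passed without shRNA2 replicate 3 (0.16, adjusted p = 0.038). *Bcas2* had the lowest GC content of the members (42.5%), and GC offsets gave a call of -0.18 with shRNA1 (adjusted p = 0.0288) and turned the shRNA2 value to -0.05, while library size as the only scaling gave a call of 0.16 with shRNA2 (adjusted p = 0.0208).

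*Ctnnbl1* (chr2:157737401-157891614), an armadillo-repeat protein that binds CDC5L, did not pass either. It had 67.4 and 70.03 CPM with nt-shRNA, 62.8, 62.5 and 67.9 CPM with shRNA1, and 64.3, 72.5 and 64.2 CPM with shRNA2. The 3 groups overlapped. Its log2 fold changes were -0.09 (interval -0.24 to 0.06, adjusted p = 0.350, edgeR) and -0.04 (interval -0.19 to 0.11, adjusted p = 0.684), and the sign turned under library size scaling and under GC offsets. Of the 5 core genes 3 rose with shRNA2, where 27.2% of all tested genes were called higher and 55.9% in either direction. With shRNA1 1 of the 5 rose, where 13.8% were called higher and 30.9% in either direction. None of the 5 was called lower in either comparison.

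Among the associated factors, *Crnkl1* (chr2:145917479-145935014), the mammalian counterpart of yeast Clf1, had the largest change of all 10 genes under either hairpin. Its level was 52.97 and 47.8 CPM with nt-shRNA, 64.2, 66.04 and 58.8 CPM with shRNA1, and 76.2, 82.2 and 72.3 CPM with shRNA2. The 3 groups did not overlap and stood in the order nt-shRNA, shRNA1, shRNA2. Relative to nt-shRNA the change was 0.32 with shRNA1 on the log2 scale (standard error 0.0773, interval 0.16 to 0.48, adjusted p = 0.00374, edgeR), 25.0% higher, and 0.61 with shRNA2 (standard error 0.0773, interval 0.45 to 0.77, adjusted p = 2.0e-06), 52.7% higher. The hairpins differed by 0.29 (adjusted p = 0.00294). The shRNA1 call was lost without nt-shRNA replicate 2 (0.25, adjusted p = 0.0868, range over the alternatives 3.0e-04 to 0.0868), and the shRNA2 call held in all 17 alternatives.

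*Bud31* (chr5:145140362-145148078), a small protein near the catalytic RNA, had the next largest change with shRNA2. It had 44.2 and 37.8 CPM with nt-shRNA, 47.1, 45.95 and 44.4 CPM with shRNA1, and 52.6, 64.8 and 52.6 CPM with shRNA2. All shRNA2 libraries were above all others, with replicate 2 well above its partners. *Bud31* was higher by 0.47 on the log2 scale with shRNA2 (interval 0.28 to 0.66, adjusted p = 2.6e-04, edgeR), 38.4% higher, and by 0.16 with shRNA1 (interval -0.03 to 0.35, adjusted p = 0.197), and the shRNA1 value was 0.05 without nt-shRNA replicate 2 and 0.28 without nt-shRNA replicate 1 (adjusted p = 0.795 and 0.107). With library size as the only scaling it was also 0.28 and passed (adjusted p = 0.0233). The hairpins differed by 0.31 (adjusted p = 0.00691), but by 0.20 without shRNA2 replicate 2 (adjusted p = 0.0522). Over the alternatives that p ran from 0.001 to 0.0522. Of its exon bases 15.2% are shared with *Ptcd1* on the opposite strand, and fragments there could not be assigned without strand.

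*Syf2* (chr4:134930898-134937548), which binds next to CRNKL1 and XAB2, was at 50.8 and 49.8 CPM with nt-shRNA, 49.03, 50.05 and 53.7 CPM with shRNA1, and 57.7, 64.4 and 56.3 CPM with shRNA2. Only the shRNA2 group lay apart. Its log2 fold change was 0.24 with shRNA2 (interval 0.09 to 0.40, adjusted p = 0.00981, edgeR) and 0.02 with shRNA1 (interval -0.14 to 0.18, adjusted p = 0.870), and the hairpins differed by 0.22 (adjusted p = 0.0144). The shRNA2 call was lost without nt-shRNA replicate 2 (0.22, adjusted p = 0.078, range 8.4e-04 to 0.078). The difference between the hairpins was lost without shRNA1 replicate 1 (0.20, adjusted p = 0.0588), shRNA1 replicate 2 (0.21, adjusted p = 0.0544) or shRNA2 replicate 2 (0.16, adjusted p = 0.0795). Over the alternatives that p ran from 0.00241 to 0.0795.

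*Isy1* (chr6:87814269-87838798) is named in yeast for its interaction with Syf1, and had the lowest shRNA1 value of the members. Its level was 28.5 and 27.6 CPM with nt-shRNA, 25.3, 24.7 and 22.9 CPM with shRNA1, and 30.1, 31.3 and 28.2 CPM with shRNA2. All shRNA1 libraries were below the controls, while the shRNA2 libraries overlapped with them. The log2 fold change with shRNA1 was -0.21 (interval -0.38 to -0.03) and did not pass after adjustment (adjusted p = 0.0686, edgeR), although GC offsets gave a call (-0.25, adjusted p = 0.0151, range over the alternatives 0.0151 to 0.424). With shRNA2 it was 0.09 (interval -0.08 to 0.27, adjusted p = 0.360). The direct difference of 0.30 between the hairpins passed (interval 0.14 to 0.46, adjusted p = 0.0051) and did so in all alternatives.

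*Xab2* (chr8:3608421-3621316), the counterpart of yeast Syf1, also binds the repair protein XPA. It had 174 and 169 CPM with nt-shRNA, 156, 162 and 182 CPM with shRNA1, and 177, 191 and 184 CPM with shRNA2. The shRNA1 libraries spread on both sides of the controls, and the shRNA2 libraries lay above them by a small margin. Neither fold change passed (-0.04, interval -0.18 to 0.10, adjusted p = 0.680, and 0.10, interval -0.04 to 0.24, adjusted p = 0.218, edgeR), nor did the difference of 0.14 (adjusted p = 0.0766), which passed without shRNA1 replicate 3 (0.21, adjusted p = 0.009). *Xab2* had the highest GC content of the members (55.7%). With GC offsets its shRNA2 value was 0.28 (adjusted p = 1.5e-04) and its difference between hairpins 0.22 (adjusted p = 0.00132), and library size scaling also gave a call with shRNA2 (0.19, adjusted p = 0.020). Of its exon bases 12.2% are shared with *Camsap3* on the opposite strand.

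**Figure D3:**
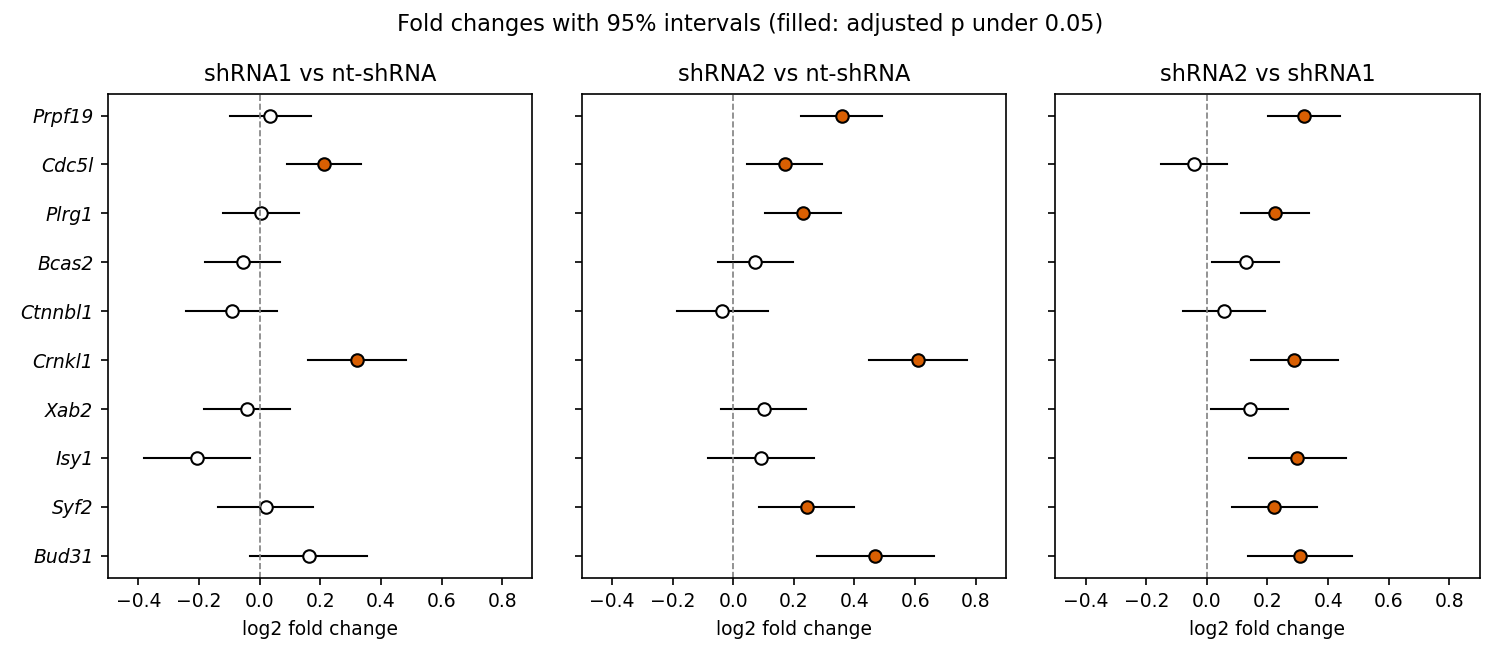
Log2 fold change of each gene with its 95% interval in the 3 comparisons (filled points have an adjusted p under 0.05, edgeR over all tested genes; the dashed line marks no change). No filled point lies to the left of the line, and the right panel has 6 genes higher with shRNA2 than with shRNA1.

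The 2 hairpins were then compared directly. In that test 6 of the 10 genes were higher with shRNA2 than with shRNA1 and none lower, where 35.6% of all tested genes were called, 16.9% as higher and 18.7% as lower. All shRNA2 libraries lay above all shRNA1 libraries for 7 members (these 6 and *Bcas2*) and below for none, against 47.8% of all tested genes without overlap, 23.6% higher and 24.1% lower. The 6 called were *Prpf19* and *Plrg1* of the core, and *Crnkl1*, *Isy1*, *Syf2* and *Bud31* of the associated factors. The median log2 difference was 0.13 for the 5 core genes and 0.29 for the 5 associated factors, against 0.00 for all tested genes. Neither median was tested. The count was 4 without shRNA2 replicate 2, and between 4 and 7 when each library was left out in turn.

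Within the shRNA2 and the nt-shRNA groups most members were highest in the same library. Of the 3 shRNA2 libraries, replicate 2 held the highest value for 9 of the 10 genes, the exception being *Cdc5l*, which was lowest there. Over all tested genes replicate 2 was the highest in 36.8% and the lowest in 37.7%. Likewise nt-shRNA replicate 1 was above replicate 2 for 9 of the 10, all but *Ctnnbl1*, against 50.4% of all tested genes. In the shRNA1 group no library stood out, with replicates 1, 2 and 3 highest for 5, 1 and 4 members and lowest for 3, 3 and 4. These counts are a description, since the genes share their libraries. The summed level of the 10 genes was 1345 and 1308 CPM with nt-shRNA, 1405, 1393 and 1398 CPM with shRNA1, and 1503, 1580 and 1500.3 CPM with shRNA2. The 3 groups did not overlap in this sum. Without *Cdc5l* the shRNA1 libraries (884, 888 and 913 CPM) overlapped with the controls (909 and 874 CPM), and the shRNA2 libraries (1003 to 1105 CPM) lay above both. For the core alone the sums were 994 and 975 CPM, then 1037 to 1063 CPM with shRNA1 and 1107 to 1146 CPM with shRNA2. For the associated factors they were 350.5 and 332 CPM, then 342 to 362 CPM with shRNA1, which spans the upper control, and 393 to 434 CPM with shRNA2.

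Across the 8 libraries the log2 CPM of *Prpf19* followed that of *Plrg1* (Pearson r = 0.986) and, among the associated factors, that of *Syf2* (r = 0.965) and *Bud31* (r = 0.936). *Cdc5l* and *Ctnnbl1* followed *Prpf19* least (r = 0.213 and 0.278) and ran against each other (r = -0.693). *Cdc5l* was closest to *Crnkl1* (r = 0.646) and *Bud31* (r = 0.406), and *Ctnnbl1* to *Xab2* (r = 0.623). These correlations are over libraries in 3 groups and share the group differences. Over all tested genes the 3 most like *Prpf19* were *Rbsn*, which encodes an endosomal Rab effector (r = 0.997), *Ccdc12*, itself a spliceosomal protein (r = 0.997), and *Fcf1*, a ribosome biogenesis factor (r = 0.996). The 3 most like *Crnkl1*, the member with the largest change, were *Atp5g3*, a subunit of ATP synthase (r = 0.996), *Bcat1*, a branched-chain aminotransferase (r = 0.994), and *Ccdc25* (r = 0.994). With shRNA2 *Ccdc12* averaged 33.6 CPM against 22.9 CPM in the controls, and *Bcat1* 703.5 against 445 CPM.

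To see whether the surrounding machinery moved as well, 20 other genes for proteins that join the spliceosome with or after the Prp19 complex were counted in the same fit. All 20 were tested. With shRNA2 11 were higher and 1 lower (*Rbmx2*), with a median log2 fold change of 0.21, close to the 0.20 of the members. Together these are 12 of 20, where 55.9% of all tested genes were called, 27.2% as higher. The *Rbmx2* call (adjusted p = 0.0426) was weak, and none of the 20 was called lower by DESeq2, with library size as the only scaling, without a count filter, with at least 10 counts in every library, with only the groups compared, or without any 1 of shRNA1 replicate 2, shRNA2 replicate 1, shRNA2 replicate 2 and nt-shRNA replicate 1. With shRNA1 5 were higher and 1 lower (*Ppil1*), where 30.9% of all tested genes were called, 13.8% as higher, with a median of 0.04. The *Ppil1* call (adjusted p = 0.0401) was as weak, and none of the 20 was called lower with shRNA1 in 11 of the 17 alternatives, DESeq2 among them. The related copies *Rnf113a1* and *Rnf113a2* are among the 20, and *Rnf113a2* is 1 of the 11 higher. Reads that fit both copies may make their counts uncertain, which was not tested. Between the hairpins 7 were higher with shRNA2 and none lower, where 35.6% of all tested genes were called, 16.9% as higher. In either direction together the 3 counts are near the background, and the calls were mostly upward. The shRNA1 count fell to 1 without nt-shRNA replicate 1 and was 2 or 3 without shRNA1 replicates 1 or 2 or nt-shRNA replicate 2, and the count between the hairpins was 4 without shRNA2 replicate 2.

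*Cwc22*, which carries the exon junction complex protein EIF4A3 to the spliceosome, had the smallest adjusted p of the 20 under shRNA2. Its level was 86.6 and 82.6 CPM with nt-shRNA, 136, 140.6 and 127 CPM with shRNA1, and 159, 157 and 160.4 CPM with shRNA2, in 3 groups that did not overlap. On the log2 scale *Cwc22* was higher by 0.67 with shRNA1 (edgeR adjusted p = 4.1e-07) and by 0.91 under shRNA2 (adjusted p = 1.3e-09), larger than that of any member, and the hairpins differed by 0.24 (adjusted p = 0.00245). *Slu7*, a factor of the second catalytic step, had 0.29 (adjusted p = 0.00663) and 0.50 (adjusted p = 1.4e-05), and the hairpins differed by 0.21 (adjusted p = 0.0167). *Ccdc12*, named above for its likeness to *Prpf19*, had 0.06 with shRNA1 (adjusted p = 0.657) and 0.55 with shRNA2 (adjusted p = 5.5e-05), a difference of 0.49 (adjusted p = 2.0e-04). *Slu7* lost its shRNA1 call without nt-shRNA replicate 1, where its log2 fold change was 0.28. Its difference between hairpins was lost without shRNA1 replicate 3 (0.19, adjusted p = 0.0575) or shRNA2 replicate 2 (0.14, adjusted p = 0.105).

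**Figure D4:**
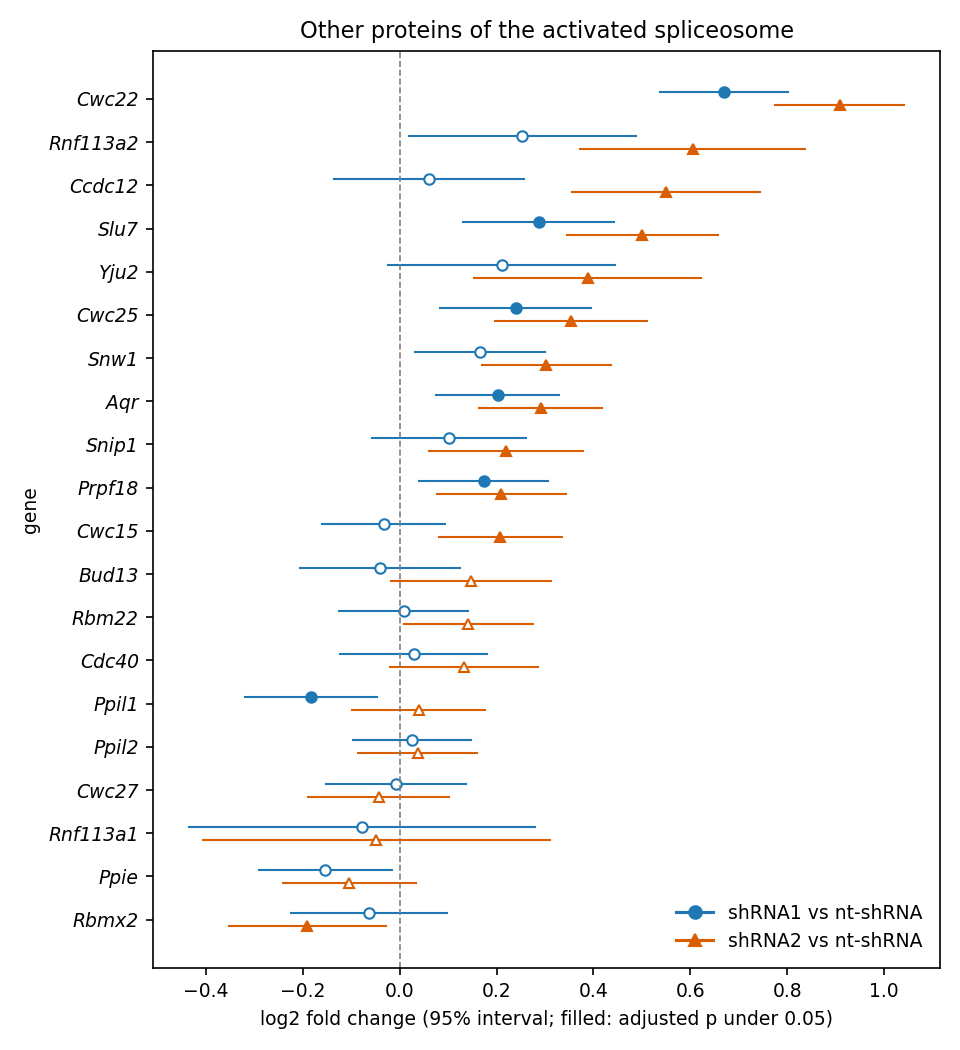
Log2 fold change with 95% interval of 20 other genes of the activated spliceosome under shRNA1 (blue circles) and shRNA2 (orange triangles) against nt-shRNA, ordered by the shRNA2 value; filled symbols have an adjusted p under 0.05 (edgeR). *Cwc22* is at the top with 0.67 and 0.91, and *Rbmx2* at the bottom is the gene called lower with shRNA2, a call lost by DESeq2 and in at least 8 other alternatives.

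Several members have partners outside the spliceosome, many of them in DNA repair and p53 control. PRPF19 is known to bind RPA at stalled forks and promote ATR signalling, XAB2 works with the CSA and CSB proteins in transcription-coupled repair, and BCAS2 binds p53. Of 13 partner genes, of these and other functions and all tested, 3 were higher and 1 lower with shRNA2 (median log2 fold change 0.12), where 55.9% of all tested genes were called. This count depended on the processing, with 8 called with library size as the only scaling, 8 with GC offsets and 9 with GC offsets and the replicate block. None of the 13 was called with shRNA1 (edgeR, and 0 by DESeq2, with 1 gene at an unadjusted p under 0.05, and median 0.04), where 30.9% of all tested genes were called, and leaving out shRNA1 replicate 3, shRNA2 replicate 1 or shRNA2 replicate 2 gave 1. Library size as the only scaling called 5 with shRNA1, GC offsets 2, and GC offsets with the replicate block 3. The 3 partners called higher with shRNA2 in the main fit were *Trp53* (0.62, edgeR adjusted p = 2.6e-06), *Ercc8*, which encodes CSA, and *Ppp1r8*, an inhibitor of PP1 that binds CDC5L. *Ercc8* had 25.4 and 22.2 CPM with nt-shRNA, 24.2, 23.4 and 24.8 CPM with shRNA1, and 31.2, 33.7 and 30.4 CPM with shRNA2. All shRNA2 libraries lay above the others (0.42 on the log2 scale, edgeR adjusted p = 5.1e-04). *Ppp1r8* rose by less, with 0.25 (adjusted p = 0.00294), and its call was lost without nt-shRNA replicate 1, where the value was 0.22. The gene that fell was *Atr*, the checkpoint kinase, with 94.99 and 104.5 CPM in the controls and 81.7, 68.9 and 89.9 CPM with shRNA2 (-0.32, adjusted p = 0.00435), and no partner was called lower without nt-shRNA replicate 2. The RPA genes *Rpa1*, *Rpa2* and *Rpa3*, whose products PRPF19 binds, did not pass with shRNA2 (-0.03, 0.12 and -0.16, smallest adjusted p = 0.0864).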

How the data were processed

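Poly(A) RNA of 8 libraries was read in pairs. Per the file header and the study's methods, the authors aligned to mm10 with STAR and counted fragments per gene with featureCounts 1.6.2 on GENCODE M24 exons. They deposited raw counts and merged exon lengths, with no normalization. The counting command sets no strand and does not keep fragments shared by overlapping genes. Symbols were found for 55144 of 55385 genes by Ensembl identifier. All count columns were used.

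The counts went into edgeR 4.0.16 under R 4.3.3 (filterByExpr with minimum count 10, leaving 17445 genes; TMM; glmQLFit and glmQLFTest; 1 coefficient per group, all 8 libraries, no block). The authors used DESeq2. A call is a Benjamini-Hochberg adjusted p under 0.05 over all tested genes. Standard errors and 95% intervals derive from the F statistic, and correlations use log2 CPM with a prior count of 2. The code was tested on simulated counts. Figures used matplotlib 3.10.9.

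Depth was 19569525 to 29871048 counts, and 3 counts were 0.1045 to 0.1481 CPM. Chi-square per gene was 2.999 to 11.62 within groups, above sampling noise for each pair of libraries. The labels call the replicates biological.

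The members and lists were chosen with earlier results of these data known. Named genes are the members, *Eftud2*, the 3 genes of the other spliceosome list and of the partner list with the smallest adjusted p under shRNA2, and the 3 genes most correlated with *Prpf19* and with the member changed most by shRNA2. *Rbmx2*, *Ppil1*, *Atr*, the *Rnf113a* copies, the RPA genes and single genes of the marker lists were named after their values were seen. Alternatives were DESeq2 1.42.0, DESeq2 size factors, scaling by library size only, a looser and a stricter count filter (none, or 10 counts everywhere), fitting just the compared groups, a replicate block, leaving out each library and, added after seeing the data, GC offsets without and with that block. Values of 1 gene of the partner list are not reported here.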

Additional observations from a re-analysis of the deposited data

Results flagged for a closer look

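For 6 members the effect of shRNA2 differed from that of shRNA1 in the direct edgeR test between the hairpins, where 35.6% of all tested genes were called, 16.9% as higher. The log2 differences (shRNA2 minus shRNA1) were 0.32 for *Prpf19* (adjusted p = 2.8e-04), 0.23 for *Plrg1* (adjusted p = 0.00311), 0.29 for *Crnkl1* (adjusted p = 0.00294), 0.30 for *Isy1* (adjusted p = 0.0051), 0.22 for *Syf2* (adjusted p = 0.0144) and 0.31 for *Bud31* (adjusted p = 0.00691), each higher in 3 of 3 shRNA2 libraries than in every shRNA1 library. The same test set apart the *Cwc22* (0.24, adjusted p = 0.00245), *Slu7* (0.21, adjusted p = 0.0167) and *Ccdc12* (0.49, adjusted p = 2.0e-04) transcripts of the activated spliceosome, and *Trp53* (0.51, adjusted p = 2.8e-05), *Ercc8* (0.39, adjusted p = 7.9e-04) and *Ppp1r8* (0.21, adjusted p = 0.00886) outside it. Some of these differences were lost when 1 library was left out. Without shRNA2 replicate 2 they were *Syf2* (0.16, adjusted p = 0.0795), *Bud31* (0.20, adjusted p = 0.0522), *Slu7* (0.14, adjusted p = 0.105) and *Ppp1r8* (0.16, adjusted p = 0.0501). *Syf2* was also lost without shRNA1 replicate 1 (0.20, adjusted p = 0.0588) or replicate 2 (0.21, adjusted p = 0.0544), and *Slu7* without shRNA1 replicate 3 (0.19, adjusted p = 0.0575). The genes listed besides the members were picked by their adjusted p under shRNA2, whose libraries the direct test uses again. Of all 13 partner genes that test called 4 higher and 1 lower, where 16.9% of all tested genes were higher and 18.7% lower. The lower partner was *Atr* (-0.25, edgeR adjusted p = 0.0178), whose libraries overlapped between the hairpins.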

How the results depend on the processing

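Over 17 alternatives the 30 member fold changes kept direction and side of the threshold in 462 of 510 values. None of the 14 called values changed sign, and 8 held in all alternatives. Adding a replicate block to the design called 2, 6 and 6 members with shRNA1, with shRNA2 and between the hairpins, and changed no member's call. Deviations of same-numbered libraries correlated by -0.0259 to 0.0742, and the main fit did not take the numbers as pairs. The study compared its qPCR replicates in pairs. With 2 controls, whose deviations mirror each other, these correlations cannot decide whether the libraries are paired. Values near 0 changed sign. Library size alone, which moved the median of all genes to 0.1067 with shRNA1 and 0.0927 with shRNA2, gave log2 fold changes with shRNA1 of 0.0587 for *Bcas2*, 0.0211 for *Ctnnbl1* and 0.0726 for *Xab2*, and 0.0519 for *Ctnnbl1* with shRNA2. It turned the split of all calls with shRNA1 from 2407 higher and 2981 lower to 4101 and 1713, and with shRNA2 from 4748 and 5010 to 5850 and 4077. Without a filter *Plrg1* with shRNA1 was 0. GC offsets gave with shRNA1 -0.0368 for *Plrg1*, 6e-04 for *Ctnnbl1*, 0.0653 for *Xab2* and -0.1255 for *Ercc8*, and with shRNA2 -0.0526 for *Bcas2* and 0.1208 for *Ctnnbl1*. GC offsets with the replicate block gave, in the same order, -0.0325, 0.0195, 0.0574, -0.1433, -0.0572 and 0.1369. Leaving out each library in turn, shRNA1 values ran from -0.0123 to 0.023 for *Plrg1*, -0.1096 to 0.0042 for *Xab2*, -0.0205 to 0.0471 for *Syf2* and -0.0745 to 0.1201 for *Ercc8*, and the hairpin difference of *Ctnnbl1* from -0.0042 to 0.0958. Members called then numbered 0 to 2 with shRNA1, 4 to 6 with shRNA2 and 4 to 7 between the hairpins. Other activated spliceosome genes numbered 1 to 7, 8 to 13 and 4 to 7, and outside partners 0 to 1, 3 to 6 and 2 to 5. GC offsets called 4 members with shRNA1. Outside partners called with shRNA1 were 5 with library size alone, 1 with at least 10 counts in every library, 1 with only the groups compared, 2 with GC offsets and 3 with these and the block. With shRNA2 they were 8, 8 and 9 with library size alone, GC offsets, and GC offsets with the block. The causes were not tested, except that leaving out a library leaves fewer samples. Members had at least 501 counts in every library. Every comparison with nt-shRNA rests on 2 control libraries.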
